A study of Mus musculus with 2 samples.

Results

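Nuclei of the mouse cochlea that carried a set of genes led by Bmp4 and Hmga2 were taken from a single-nucleus RNA sequencing data set and described on their own. A nucleus was kept if it had at least 500 detected genes, at most 5% mitochondrial UMIs (unique molecular identifiers, 1 per captured transcript molecule) and at most 15000 UMIs. It entered the gate if at least 3 of 8 genes were detected in it, namely Bmp4, Rasgef1b, Ankrd6, Ndst3, Hmga2, Npnt, Lmo3 and Slc12a8. Ano1, Fgfr3 and Mansc4 had to be at 0, and fewer than 2 of the hair cell genes Myo3a, Dytn, Loxhd1 and Strip2 could be detected. Of 19339 kept nuclei, 591 passed and are called gated nuclei here. The gate was chosen on the counts of these 8 genes, so their values describe the gate and are no finding.

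The tissue is labelled basement membranes of the cochlea, from mice of postnatal day 7 that were given tamoxifen at day 1. The group named Serpine2 cOE (conditional overexpression) had the genotype Lgr5EGFP-CreER/+,Serpine2loxp/loxp and was pooled from 20 cochleae. The control group was Serpine2loxp/loxp and was pooled from 19 cochleae, so both groups carried the loxP alleles and the same tamoxifen. Each group was 1 library, so no difference between them has a replicate check. The driver allele, which acts in cells that express Lgr5, and the state of Serpine2 differ together and cannot be told apart. The label of a loxP allele leaves unsaid whether Cre raises or deletes Serpine2, since the sources used here do not describe the construct. Animals were pooled, so no value belongs to a single animal.

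The floor of the cochlear duct runs from the inner side, with interdental cells and the Kölliker organ, through hair cells with their pillar and Deiters cells, to lateral cells next to the stria vascularis. Bmp4 encodes a secreted signal of the BMP family. In the developing mouse cochlea it is made on the lateral side of the sensory strip and acts in a gradient across the duct. Hmga2 encodes a chromatin protein of immature cells whose messenger RNA is a well known target of the let-7 microRNAs.

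The Serpine2 cOE library had 12014 barcodes with 40429121 UMIs and the control library 9820 barcodes with 31158971 UMIs, and 10567 nuclei of cOE and 8772 of control were kept. Gated nuclei numbered 341 in cOE, 3.23% of the kept nuclei (95% interval 2.90 to 3.58), and 250 in control, 2.85% (2.51 to 3.22). The ratio of the shares, cOE over control, was 1.13 with an interval of 0.959 to 1.34 that includes equality. All intervals here are exact 95% intervals of counting error only. Gated nuclei were deeper than the rest, with median UMI counts of 3887 in cOE and 3633 in control, against 2444 and 2246.5 in the other nuclei of cOE and of control. Their UMIs summed to 1557388 in cOE and 1056254 in control, so that a gene with 0 UMIs could still stand at 1.93 CPM (counts per 1000000 UMIs) in cOE and 2.84 CPM in control. The libraries shared 27 cell barcodes, and none of them belonged to gated nuclei.

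The number of rule genes per nucleus had a low point between the bulk of the nuclei and a second group. With 5 or more rule genes there were 245 gated nuclei in cOE and 169 in control, and with exactly 4 there were 21 in cOE and 20 in control. Gated nuclei with exactly 3 numbered 75 in cOE and 61 in control. In summed mesenchyme markers, which the gate does not use, those just inside the limit were nearer to those just outside it than to those at 5 rule genes. These markers held 4873 CPM in cOE and 7020 in control at exactly 3 rule genes. At exactly 2 they held 5847 CPM in cOE and 7341 in control, and at 5 they held 1905 and 3520 CPM. At exactly 3 rule genes the 8 genes summed to 1101 CPM in cOE and 1100 in control, and at exactly 2, with the same exclusions, to 817 CPM in 490 cOE nuclei and 765 CPM in 368 control nuclei. At 5 rule genes the sum of the 8 genes was 8371 CPM in cOE and 4897 in control. This sum is tied by construction to the number of rule genes detected and is no finding. Apart from the gate, 173 nuclei (111 in cOE, 62 in control) had 5 or more rule genes but failed an exclusion, 105 of them on Ano1, and 76 of the 173 had a single UMI of Ano1, Fgfr3 and Mansc4 together.

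**Figure D1:**
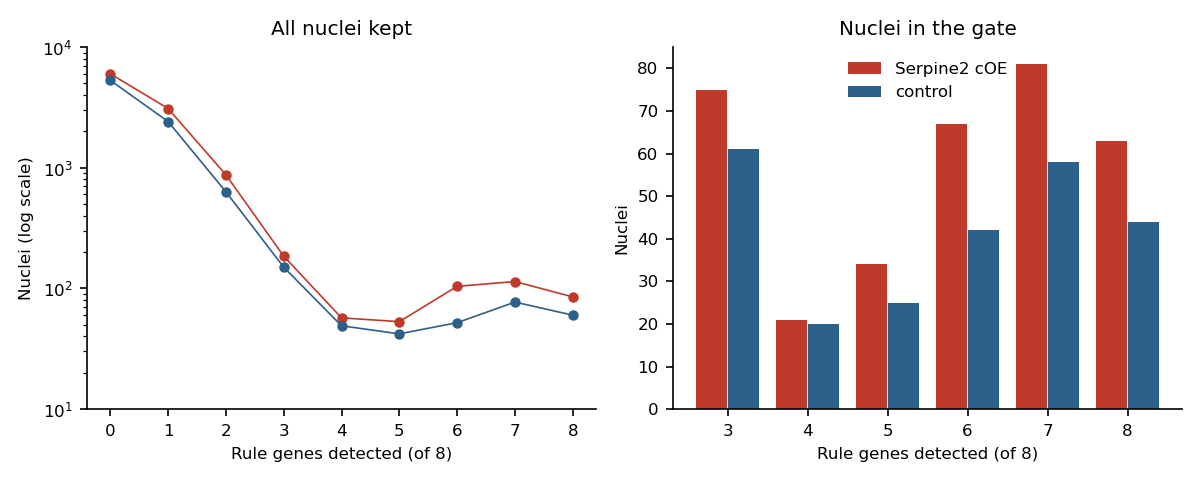
Number of kept nuclei (vertical axis, log scale on the left) by the number of the 8 rule genes detected in a nucleus (horizontal axis), and on the right the gated nuclei alone on a linear scale, with Serpine2 cOE in red and control in blue. In cOE the gated nuclei number 75 at 3 rule genes, 21 at 4 and 81 at 7, and in control 61, 20 and 58.

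Part of the gate went against the label of a lateral epithelium. Clustering the 591 nuclei without the rule and exclusion genes gave 8 sub-clusters, numbered here and not given cell type names. Sub-clusters 0, 1 and 2, with 339 nuclei (192 in cOE, 147 in control), had fewer than 3 raised markers of any other cell type and 5 or more rule genes in most of their nuclei (91.9%, 57.9% and 89.5%), and are called unmixed. Raised here means more than 2-fold over the rest of the gated nuclei, so a marker shared across the gate does not count. This rule was made after seeing the sub-clusters. The remaining 252 nuclei (149 in cOE, 103 in control) are called mixed. Sub-cluster 5 with 158 nuclei had 8 of 12 mesenchyme markers at a raised level, sub-cluster 4 with 24 nuclei had 7 of 12, sub-cluster 3 with 50 nuclei had 7 of 7 markers of the roof epithelium, and sub-cluster 6 with 6 nuclei had 6 of 8 neuron markers. Sub-cluster 7 had 14 nuclei, all from cOE, and 7.14% of them had 5 or more rule genes. It was high in Otoa (978 CPM) and Rspo2 (749 CPM) of the interdental list and in Epyc (1222 CPM) of the Kölliker organ list. Lmo3 stood at 45.8 CPM in it and Hmga2 at 76.4 CPM. Scores of the doublet caller Scrublet were among the highest of their library in 105 of the 252 mixed nuclei (41.7%) and in 4 of the 339 unmixed ones (1.18%).

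Summed mesenchyme markers stood at 1036 CPM in unmixed nuclei of cOE and 804 CPM in unmixed nuclei of control, against 4430 CPM in mixed nuclei of cOE and 5751 CPM in mixed nuclei of control. Other nuclei had 8280 CPM in cOE and 8592 in control. The part that mixed nuclei play in a result was not tested, and most results below are given for all gated nuclei and for the unmixed ones. Unmixed nuclei made up 1.82% of kept nuclei in cOE (1.57 to 2.09) and 1.68% in control (1.42 to 1.97), with a ratio of 1.08 (0.870 to 1.35).

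Epithelial markers were present in unmixed nuclei, although the choice of these sub-clusters already limits markers of other types. The epithelium list summed to 942 CPM in cOE and 905 in control. Esrp1, a splicing factor of epithelia, stood at 164 CPM in gated nuclei of cOE and 187 CPM in those of control, against 70.3 CPM and 50.3 CPM in the other nuclei of cOE and of control. Esrp1 was the 1 of 9 tested epithelial genes past 2-fold over other nuclei in both libraries, beside 3.4% of all genes tested. In unmixed nuclei 4 of 9 tested epithelial genes were, beside 5.97% of all genes tested. Some other lists were not low. Kölliker organ markers held 3884 CPM in unmixed and 3469 CPM in other nuclei of cOE, and 3547 beside 2719 CPM in those of control. Interdental markers held 6933 beside 6023 CPM in cOE, and for control 6661 beside 5470 CPM. Osteoblast or chondrocyte markers held 1426 beside 1081 CPM in cOE, and for control 1138 beside 1016 CPM. In this order, 3 of 11, 1 of 4 and 1 of 5 tested genes were past 2-fold higher, and 4, 2 and 2 lower. Endothelium and pericyte markers summed to 438 CPM in unmixed nuclei of cOE and 509 CPM in those of control, mostly from Flt1 and with Kdr at 0, against 113 CPM and 129 CPM in the other nuclei of cOE and of control. Glia markers summed to 583 CPM in unmixed nuclei of cOE and 648 CPM in those of control, against 261 CPM and 225 CPM in the other nuclei of cOE and of control, with the Sox10 gene, shared with otic epithelium, past 2-fold. Of the melanocyte list, Dct, Tyrp1, Tyr and Pax3 were at 0. The lateral position itself rests on the rule genes alone. In a list of channels and transporters of the lateral floor, 0 of 7 tested genes were past 2-fold higher in both libraries. Anxa1 of this list was past 2-fold lower. The list of 12 genes summed to 262 CPM in gated nuclei of cOE and 176 CPM in those of control. The other nuclei of cOE and of control had 279 CPM and 244 CPM. Aqp4 and Slc26a4 are 2 of these genes and do not stand for the list. Aqp4, a water channel, stood at 12.8 CPM in gated nuclei of cOE and 8.52 CPM in those of control, against 7.39 CPM and 5.17 CPM in the other nuclei of cOE and of control. Slc26a4, the anion exchanger pendrin, had 37.9 CPM in gated nuclei of cOE and 28.4 CPM in those of control, against 19.6 CPM and 16.5 CPM in the other nuclei of cOE and of control. In unmixed nuclei Slc26a4 stood at 14.6 CPM in cOE and 22.5 in control, and Aqp4 had 9 UMIs in cOE and 8 in control. The whole list summed to 145 CPM in unmixed nuclei of cOE and 124 CPM in those of control.

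**Figure D2:**
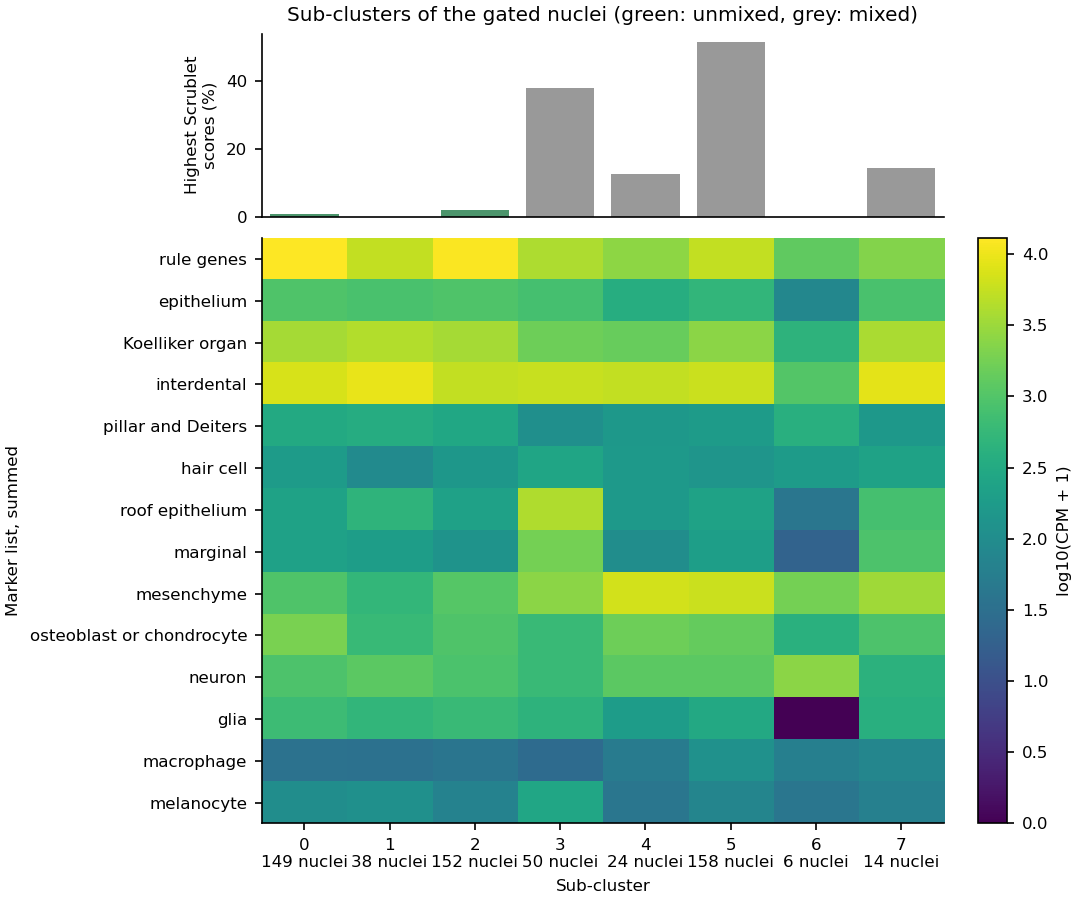
Share of nuclei with the highest doublet scores (upper bars, %) and summed markers of each cell type list as log10(CPM + 1) (heat map) in the 8 sub-clusters of the gated nuclei, with their numbers of nuclei below. The 3 unmixed sub-clusters (green bars) have at most 1.97% of nuclei with the highest scores, while sub-clusters 3 and 5 have 38% and 51.3% and stand high in roof and mesenchyme markers.

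The rule genes themselves were high in both libraries by construction. Bmp4 (ENSMUSG00000021835, GRCm39 chr14:46620250-46636745, minus strand) had 1313 UMIs in gated nuclei of cOE and 781 in those of control, or 843 CPM (798 to 890) in cOE and 739 CPM (688 to 793) in control. In the other nuclei it stood at 43.9 CPM in cOE and 46.9 in control. A UMI of Bmp4 was found in 82.7% of gated nuclei in cOE and 79.2% in control. Macrophage-marked nuclei, which should lack Bmp4 and so show the level of free RNA, had it in 6.96% of 115 nuclei in cOE (median 1923 UMIs) and 5.84% of 154 in control (median 1841.5 UMIs). After thinning each nucleus to 1000 UMIs, Bmp4 was detected in 52.4% of gated nuclei in cOE and 50.9% in control, against 3.59% and 4.40% of the other nuclei of cOE and of control.

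Hmga2 (ENSMUSG00000056758, chr10:120197173-120313095, minus strand) had 392 UMIs in gated nuclei of cOE and 342 in those of control, or 252 CPM (227 to 278) in cOE and 324 CPM (290 to 360) in control. Other nuclei had 11.6 CPM in cOE and 9.56 in control. A UMI of Hmga2 was found in 46.6% of gated nuclei in cOE and 49.6% in control, and in macrophage-marked nuclei in 0 of 115 in cOE and 1 of 154 in control.

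The other rule genes cover unlike functions. Rasgef1b (chr5:99365278-99877129, minus strand), an exchange factor for small Ras-like GTPases, had 2524 CPM in cOE and 2565 in control, against 138 CPM and 122 CPM in the other nuclei of cOE and of control. Ndst3 (chr3:123319815-123484532, minus strand), an enzyme that modifies heparan sulfate, had 525 CPM in cOE and 661 in control, against 17.3 CPM and 21.4 CPM in the other nuclei of cOE and of control. Npnt (chr3:132587506-132656257, minus strand) encodes the basement membrane protein nephronectin, an integrin ligand. Npnt stood at 1430.0 CPM in cOE and 1316 in control. Ankrd6 (chr4:32799278-32950882, minus strand) encodes diversin, which acts in Wnt and planar polarity signalling, and stood at 780.2 CPM in cOE and 793 in control. Lmo3 (chr6:138339124-138559309, minus strand), a LIM-domain transcription cofactor, had 1211 CPM in cOE and 1054 in control, and the transporter gene Slc12a8 (chr16:33337686-33484506, plus strand) had 204 CPM in cOE and 221 in control. CPM values are not adjusted for gene length, so levels are compared between samples and not between genes.

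Genes that accompanied the rule genes included lncRNAs, secreted factors and surface receptors. They are the 20 with the largest excess over the other nuclei in the library where that excess was smaller, among genes found in at least 10% of gated nuclei of each library. Lama3, a laminin chain of epithelial basement membranes, stood at 55.9 CPM in gated nuclei of cOE and 58.7 CPM in those of control, against 2.56 CPM and 2.32 CPM in the other nuclei of cOE and of control. Pdgfb, a growth factor that recruits pericytes, had 133 CPM in cOE and 173 in control, against 7.86 CPM and 9.93 CPM in the other nuclei of cOE and of control. Fst encodes follistatin, which binds activins and BMPs, and had 155 CPM in cOE and 121 in control, against 11.1 CPM and 7.45 CPM in the other nuclei of cOE and of control. On the log2 scale the excess of Fst, the smallest of these 3, was 3.81 in cOE and 4.02 in control.

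Further secreted regulators and receptors stood in the same set. Bmper, a secreted BMP-binding protein, had 604 CPM in cOE and 584 in control, against 69.8 CPM and 65.3 CPM in the other nuclei of cOE and of control. Frzb, a secreted Wnt antagonist, had 173 CPM in cOE and 167 in control, against 20.9 CPM and 14.8 CPM in the other nuclei of cOE and of control. Flt1, a VEGF receptor best known from endothelium, had 268 CPM in cOE and 325 in control, against 19.9 CPM and 25.6 CPM in the other nuclei of cOE and of control. Of the endothelial list in unmixed nuclei Flt1 held 290 UMIs in cOE and 247 in control, while Kdr had none and Pecam1 had 0 in cOE and 4 in control. Vipr1, a receptor for vasoactive intestinal peptide, Cd44, a hyaluronan receptor, and Vwa2, a matrix protein, completed the named coding genes with Polk, a DNA repair polymerase.

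Several of the leading transcripts lie across a rule gene. 1700006J14Rik (chr10:120163998-120220241, plus strand) overlaps Hmga2, Gm15217 (chr14:46616871-46621067, plus strand) overlaps Bmp4, and Gm16226 (chr5:99830241-99863867, plus strand) overlaps Rasgef1b. Polk likewise overlaps Cert1 on the opposite strand. The use of strand in counting is not stated in the sources used here, so reads of these genes and their antisense partners cannot be told apart. 1700006J14Rik stood at 70.6 CPM in gated nuclei of cOE and 98.5 CPM in those of control, against 1.96 CPM and 3.81 CPM in the other nuclei of cOE and of control. Gm35533, a lncRNA, had 72.6 CPM in cOE and 142 in control, against 3.41 CPM and 2.90 CPM in the other nuclei of cOE and of control.

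The excess also held for Lama3, Bmper and Cd44 over nuclei gated for neighbouring cell types. Lama3 stood at 3.17 CPM in Kölliker organ nuclei, 6.23 CPM in pillar and Deiters nuclei and 3.21 CPM in roof nuclei of cOE, and at 3.50, 11.9 and 4.65 CPM in those 3 gates of control. Bmper stood at 53.7, 72.7 and 25.7 CPM in the 3 gates of cOE and at 56.4, 95.5 and 30.4 CPM in those of control. Cd44 had 74.8 CPM in pillar and Deiters nuclei of cOE and 75 CPM in those of control, against 275 CPM and 207 CPM in gated nuclei of cOE and of control. Other leading genes were closer to the pillar and Deiters gate. The log2 excess over it was 0.76 in cOE and 1.36 in control for Gm14133, and 2.77 and 1.27 for 1700006J14Rik. The 8 rule genes summed to 1088 CPM in that gate of cOE and 2181 CPM in that of control. All other nuclei of cOE and of control had 443 CPM and 410 CPM of them. In unmixed nuclei alone the excess over other nuclei was larger, at 4.69 (log2) in cOE and 4.76 in control for Pdgfb and 4.14 in cOE and 4.75 in control for Fst.

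**Figure D3:**
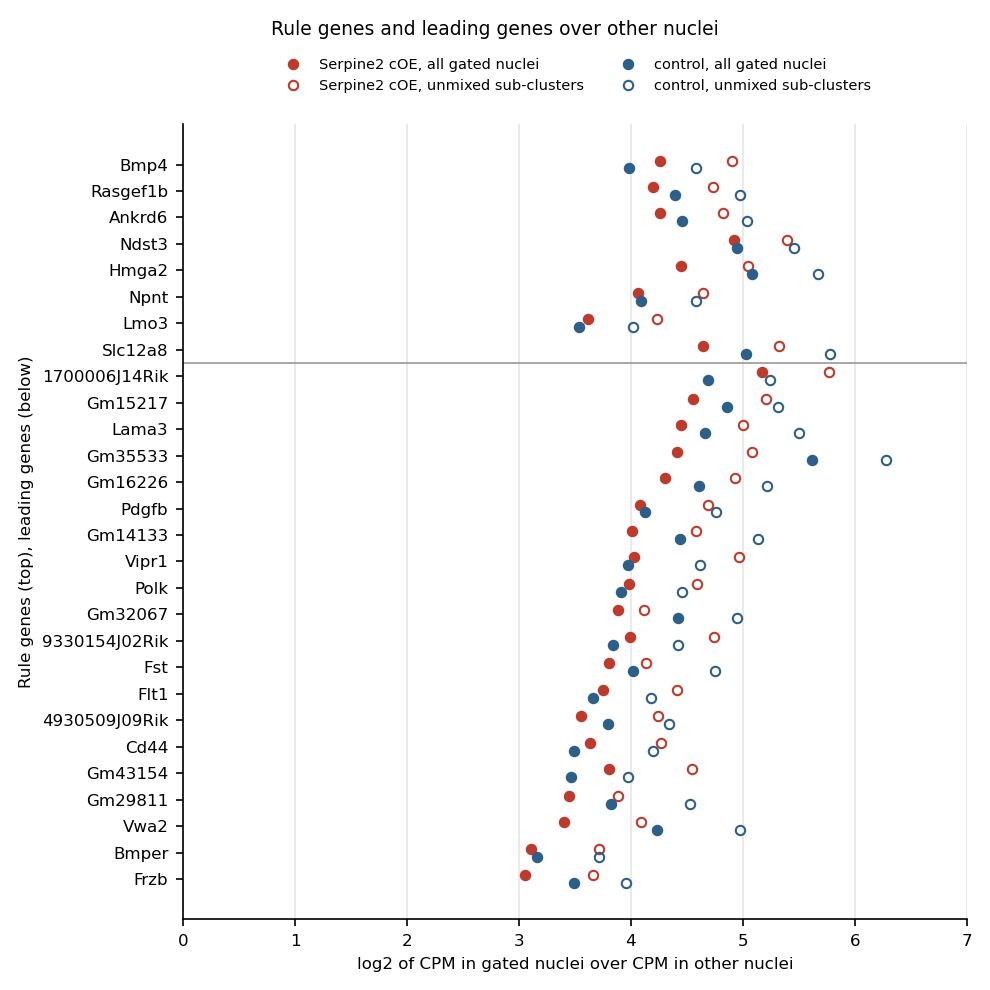
Excess of gated over other nuclei, as log2 of the ratio of CPM, for the 8 rule genes and the 20 leading genes that were not in the rule, in Serpine2 cOE (red) and control (blue), with filled points for all gated nuclei and open points for unmixed ones. Lama3 sits at 4.45 in cOE and 4.66 in control and Frzb at 3.05 in cOE and 3.50 in control. The rule genes are shown as a description of the gate.

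Pathway genes were read against the background of all genes. Of 11720 genes with enough UMIs, 3.4% were more than 2-fold higher in gated than in other nuclei of both libraries and 2.47% more than 2-fold lower, and the median log2 ratio was −0.03 in cOE and −0.02 in control. In unmixed nuclei 5.97% of 8678 genes were higher and 4.07% lower. A gene needed 20 UMIs in the gated nuclei themselves, so genes that are low there often drop out, and the numbers of higher and lower genes are shaped by this. Nuclei that failed the exclusions on Ano1, Fgfr3, Mansc4 and hair cell genes stayed among the other nuclei. Lower values of markers of those cells, such as Lgr5, Lfng, Rorb and Tectb, are therefore in part built in by the gate. These comparisons describe which genes go with the gate, and no test was made.

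Among BMP ligands and antagonists outside the rule, 4 of 10 tested genes were higher and 1 was lower. Bmp7 stood at 166 CPM in gated nuclei of cOE and 161 CPM in those of control, against 24.4 CPM and 21.2 CPM in the other nuclei of cOE and of control. Bmp6 had 387 CPM in cOE and 292 in control, against 116 CPM and 85.2 CPM in the other nuclei of cOE and of control. Bmper and Fst were the other two. Chrdl1, a chordin-like antagonist, was lower, with 8.99 CPM in cOE and 6.63 in control, against 35.4 CPM and 24.8 CPM in the other nuclei of cOE and of control. In unmixed nuclei 4 of 7 tested genes were higher and 0 lower, where Chrdl1 had too few UMIs to be tested.

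BMP and TGF-beta receptors and effectors gave 4 of 27 higher and 0 lower. The inhibitory Smad genes stood out among them. Smad6 had 374 CPM in gated nuclei of cOE and 461 CPM in those of control, against 154 CPM and 143 CPM in the other nuclei of cOE and of control. Smad7 had 353 CPM in cOE and 458 in control, against 120 CPM and 126 CPM in the other nuclei of cOE and of control. The ligand gene Tgfb2 and Smad9, a receptor-regulated Smad of the BMP branch, were the other two. Id1 and Id3, common targets of BMP signalling, were not past 2-fold. Id1 stood at 166 CPM in gated nuclei of cOE and 151 CPM in those of control, against 134 CPM and 122 CPM in the other nuclei of cOE and of control, while Id3 stood at 269 CPM in cOE and 237 in control, against 272 CPM and 261 CPM in the other nuclei of cOE and of control. In unmixed nuclei the same 4 genes of 26 tested were higher, and Tgfbr3 and Bambi, an inhibitory pseudoreceptor, were lower.

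FGF and EGF family genes and their targets gave 8 of 25 higher and 2 lower. Nrg3 and Fgf12 were counted as higher mostly through the 6 neuron-marked nuclei of sub-cluster 6, which held 355 UMIs of Nrg3 and 312 of Fgf12. In the rest of the gated nuclei Nrg3 stood at 7.80 CPM and Fgf12 at 8.19 CPM. Etv4 and Etv5, transcription factors induced by FGF signals, were among the higher ones. Etv5 stood at 212 CPM in gated nuclei of cOE and 204 CPM in those of control, against 31.5 CPM and 38.4 CPM in the other nuclei of cOE and of control. Spry2, a feedback inhibitor of the same pathway, had 44.9 CPM in cOE and 51.1 in control, against 22.3 CPM and 18.7 CPM in the other nuclei of cOE and of control. The EGF-family receptor gene Erbb3 was higher and Erbb4 lower, with 705 CPM of Erbb4 in gated nuclei of cOE and 524 CPM in those of control, against 1512 CPM and 1329 CPM in the other nuclei of cOE and of control. In unmixed nuclei Erbb4 was at 23.4 CPM in cOE and 41.3 in control, and the list gave 5 of 17 higher and 4 lower, without Spry1, Nrg3 and Fgf12.

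Wnt genes gave 5 of 40 higher and 3 lower. The ligand genes Wnt7a and Wnt7b, the antagonist Sfrp1, the receptor Fzd6 and Rspo2, an R-spondin that strengthens Wnt signals through Lgr receptors, were higher. Rspo2 stood at 175 CPM in gated nuclei of cOE and 104 CPM in those of control, against 35.0 CPM and 20.4 CPM in the other nuclei of cOE and of control. Lgr5, a receptor for R-spondins and the gene whose promoter drives the CreER, was lower, with 16.1 CPM in cOE and 24.6 in control, against 67.9 CPM and 61.3 CPM in the other nuclei of cOE and of control. In unmixed nuclei the same 5 of 29 tested genes were higher, and 5 were lower, namely Lef1, Nkd1, Lgr5, Axin2 and Notum. Notum is also a mesenchyme marker here, so that the choice of unmixed sub-clusters bears on its value. Lgr5 is a pillar and Deiters marker here, so that the exclusions of the gate bear on its value.

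Notch genes gave 2 of 16 higher, the receptor gene Notch1 and the effector Hey2, and 1 lower, the glycosyltransferase gene Lfng. Hey2 stood at 99.5 CPM in gated nuclei of cOE and 73.8 CPM in those of control, against 17.8 CPM and 12.2 CPM in the other nuclei of cOE and of control. Of 28 transcription factors of the inner ear 2 were higher, Gata2 and Sox10, and 1 was lower, Rorb. Gata2 had 256 CPM in cOE and 239.5 in control, against 90.2 CPM and 53.7 CPM in the other nuclei of cOE and of control. Sox2, the factor of prosensory and supporting cells, stood at 5.78 CPM in cOE and 4.73 in control, against 13.1 CPM and 7.86 CPM in the other nuclei of cOE and of control. In unmixed nuclei the Notch list gave 3 of 12 higher, with Numb added, and 0 lower, and the transcription factors gave 3 of 22 higher, with Gata3 added, and 3 lower, namely Lmx1a, Esrrg and Nr2f2. Lmx1a is also a roof and marginal marker here, so that the choice of unmixed sub-clusters bears on its value.

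Matrix genes gave 5 of 40 higher and 5 lower. Otogl, an otogelin-like protein of the acellular gels of the inner ear, had 1407 CPM in gated nuclei of cOE and 1259 CPM in those of control, against 240.1 CPM and 169 CPM in the other nuclei of cOE and of control. Tectb, which encodes beta-tectorin of the tectorial membrane, was lower, with 198 CPM in cOE and 171 in control, against 1035 CPM and 729.6 CPM in the other nuclei of cOE and of control. Heparan sulfate enzymes gave 2 of 23 higher, Hs3st1 and Hs6st3, and 1 lower, Hs6st2. Axon guidance genes gave 3 of 38 higher, led by Ntn4, and 4 lower. Retinoic acid and thyroid hormone genes gave 1 of 16 higher, Rxrg, and 3 lower, among them Cyp26b1, a retinoic acid-degrading enzyme, with 8.99 CPM in cOE and 10.4 in control, against 102 CPM and 78.6 CPM in the other nuclei of cOE and of control. In unmixed nuclei the matrix list gave 8 of 30 higher and 7 lower, the heparan sulfate list 2 of 15 higher and 0 lower, the axon guidance list 4 of 29 higher and 7 lower, and the retinoic acid and thyroid hormone list 1 of 9 higher and 1 lower.

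Among genes of cell cycle exit only Cdkn1b, which encodes the inhibitor p27Kip1, was past 2-fold of 14 tested. It stood at 213 CPM in gated nuclei of cOE and 186 CPM in those of control, against 93.5 CPM and 79.0 CPM in the other nuclei of cOE and of control. In unmixed nuclei Cdkn1b and the cyclin gene Ccnd1 were higher and Rb1 lower, of 11 tested. Proliferation markers summed to 38 CPM in unmixed nuclei of cOE and 50.7 CPM in those of control, against 50.9 CPM and 59.1 CPM in the other nuclei of cOE and of control. Planar polarity genes (14 tested), connexins and junction genes (19) and plasminogen system genes (10) had none past 2-fold in both libraries, and the ion transport list had 0 of 33 higher and 3 lower. In unmixed nuclei the planar polarity list had 0 of 10 higher and 1 lower, the connexin and junction list 2 of 13 higher and 1 lower, the plasminogen list 0 of 8 higher and 2 lower, and the ion transport list 2 of 22 higher, Kcnj10 and Kcnk1, and 3 lower.

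**Figure D4:**
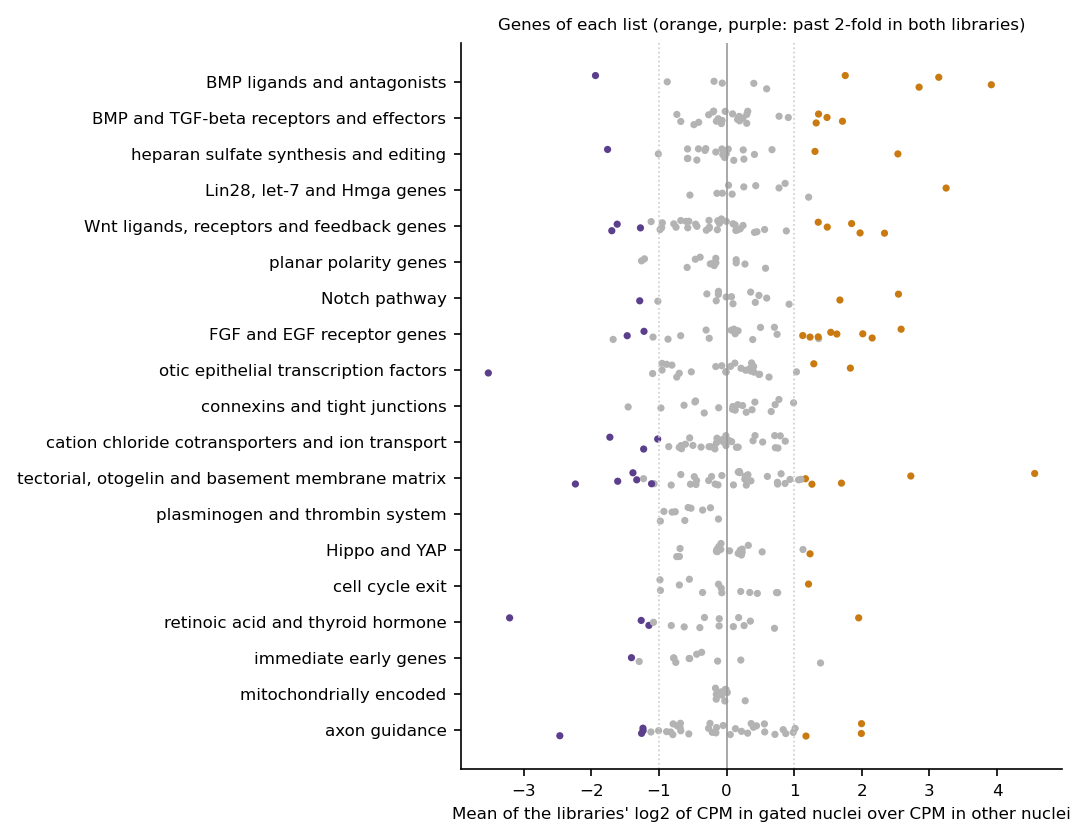
Log2 ratio of CPM in gated over other nuclei, averaged over both libraries, with 1 point for each gene of each list and points past 2-fold in both libraries in orange (higher) or purple (lower). The FGF and EGF list has 8 of 25 genes higher and the planar polarity list 0 of 14. Among the 8, Nrg3 and Fgf12 are high in the 6 nuclei of sub-cluster 6.

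Genes of the Lin28, let-7 and Hmga circuit were examined because Hmga2 is a rule gene. Lin28 proteins block the maturation of let-7, and let-7 in turn represses Lin28, Hmga2, Igf2bp and Trim71 transcripts in many mammalian cells. Of 11 tested genes other than Hmga2, 1 was past 2-fold in both libraries. Trim71, an RNA-binding ubiquitin ligase of early development, stood at 58.4 CPM in gated nuclei of cOE and 79.5 CPM in those of control, against 7.51 CPM and 6.87 CPM in the other nuclei of cOE and of control. Its log2 excess was 2.96 in cOE and 3.53 in control. Lin28b had 19.9 CPM in gated nuclei of each library, against 28.3 CPM in the other nuclei of cOE and 17.1 CPM in those of control. In unmixed nuclei 4 of 10 tested genes were higher, namely Trim71, Igf2bp1, Igf2bp2 and Igf2r.

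The let-7 match sites of Hmga2 and Trim71 are shown because Hmga2 is a rule gene, Trim71 was the 1 gene of the list past 2-fold in all gated nuclei, and each holds 4 of them. The mature microRNA is given as RefSeq has it (GRCm38.p6, chr13:48538239-48538260, minus strand), with the seed, bases 2 to 8 from the 5′ end, in capitals. Of 11 let-7 family sequences, 10 share these bases. MicroRNAs were not measured here. Each site is read 5′ to 3′ on the transcript strand in GRCm39, with the 7 bases that pair with the seed, CTACCTC, in capitals.
mmu-let-7a-5p: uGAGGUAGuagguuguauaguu
Hmga2 site 1 (chr10:120200122-120200144, minus strand): ttcaatttCTACCTCagcatcag
Hmga2 site 2 (chr10:120198885-120198907, minus strand): cctcaataCTACCTCtgaatgct
Hmga2 site 3 (chr10:120198447-120198469, minus strand): gcaaggaaCTACCTCcacacttc
Hmga2 site 4 (chr10:120197589-120197611, minus strand): acacactaCTACCTCttaagtcc
Trim71 site 1 (chr9:114341533-114341555, minus strand): cctaagtcCTACCTCagcttaaa
Trim71 site 2 (chr9:114341437-114341459, minus strand): atttctatCTACCTCaactcttt
Trim71 site 3 (chr9:114338108-114338130, minus strand): tggattttCTACCTCaattttgg
Trim71 site 4 (chr9:114338082-114338104, minus strand): aaagttgtCTACCTCacgtcggc

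Such matches are uncommon. Over the longest annotated 3′ untranslated region of 20947 coding genes, 11.9% held CTACCTC at least once and 0.0716% held it 4 or more times, with 10.2% holding it on the opposite strand. The median region had 1470 bases, shorter than those of Hmga2 and Trim71, and these shares are not adjusted for length. Hmga2 (3021 bases searched), Trim71 (5512 bases), Igf2bp1 and Lin28b held 4 each, although Lin28b was not past 2-fold in gated nuclei, and 10 of the 13 searched genes of the list held at least 1. The list was made of genes of the let-7 circuit, so its count is no finding. None of the other 7 rule genes held a match, beside the 11.9% of all regions that did. A match is a description of sequence and not evidence of binding.

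Gated nuclei differed among themselves, and the sub-clusters are described here by the genes that define them, which are no finding. Sub-cluster 0 (149 nuclei) was high in Ucma, a matrix protein first known from cartilage, in Col4a3, a basement membrane collagen, and in Bmp6. Sub-cluster 2 (152 nuclei) was high in Fst, Sfrp1 and Igf2bp1. Sub-cluster 1 (38 nuclei) was high in Syt6, Pcdh17, Car10 and Hhla1. Bmp4 stood at 1468 CPM in sub-cluster 0, 572 CPM in sub-cluster 1 and 1222 CPM in sub-cluster 2, whereas Hmga2 stood at 335, 158 and 615 CPM in these 3. Ndst3 had 560 CPM in sub-cluster 0, 420 CPM in sub-cluster 1 and 1228 CPM in sub-cluster 2, so both genes were highest in the Fst-rich nuclei.

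The genes that define sub-clusters 0 and 2 are given once more by pairs, which restates the clustering nucleus by nucleus, in the 414 gated nuclei with 5 or more rule genes. Of the 114 nuclei with a UMI of Fst, 12.3% had Ucma and 24.6% had Bmp6, against 39.7% and 63.3% of the 300 without Fst. After thinning to 1000 UMIs, Ucma was found in 1.8% of 57 nuclei with Fst and in 16.0% of 356 without it. Hmga2 was detected in 51.1% of 133 nuclei with Ucma and in 70.8% of 281 without it, and at equal depth in 17.2% of 58 and 33.0% of 355. Kcnj16, an inward-rectifier potassium channel, went the other way, in 16.5% of nuclei with Ucma and 3.9% of those without. In single nuclei Fst and Ucma were thus found together less often than apart at both depths, as a description with no test.

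The groups were then compared within the gated nuclei. Serpine2 (a secreted inhibitor of thrombin and plasminogen activators) had 116 UMIs in gated nuclei of cOE and 70 in those of control, or 74.5 CPM in cOE and 66.3 in control. Its log2 ratio, cOE over control, was 0.17, with an interval of −0.27 to 0.62 that includes 0, and in unmixed nuclei it was −0.19 (−0.93 to 0.56). Other nuclei had 87.6 CPM in cOE and 92.2 in control. Lgr5 had 25 UMIs in cOE and 26 in control, with a ratio of −0.62 (−1.47 to 0.23). At these counts no difference of Serpine2 or Lgr5 was detectable in gated nuclei.

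Of the rule genes, Bmp4, Lmo3 and Npnt were slightly higher and Ndst3 and Hmga2 were lower in cOE, all by less than 2-fold. The nuclei of each library were chosen on these same genes, so their ratios describe the gated nuclei and are no finding. The log2 ratio, cOE over control, was 0.19 for Bmp4 (0.06 to 0.32), 0.20 for Lmo3 (0.09 to 0.31), 0.12 for Npnt (0.02 to 0.22), −0.33 for Ndst3 (−0.48 to −0.19) and −0.36 for Hmga2 (−0.58 to −0.15). In gated nuclei with 5 or more rule genes the ratio of Bmp4 was 0.12 (−0.01 to 0.25), which includes 0. In unmixed nuclei the ratios were 0.22 for Bmp4 (0.07 to 0.37), −0.37 for Ndst3 (−0.55 to −0.18) and −0.35 for Hmga2 (−0.61 to −0.10). Within single sub-clusters the direction of Hmga2 was not kept, with 0.33 in sub-cluster 0 and −0.65 in sub-cluster 2. Sub-cluster 0 held 105 nuclei of cOE and 44 of control, and sub-cluster 2 held 73 of cOE and 79 of control.

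Between the libraries, 328 of 11729 genes tested in gated nuclei (2.8%) were more than 2-fold higher in cOE and 242 (2.06%) more than 2-fold lower, together 4.86%. In unmixed nuclei 250 of 8686 (2.88%) were higher and 215 (2.48%) lower. Gated nuclei with 5 or more rule genes gave 2.77% higher and 2% lower, together 4.77%. Other nuclei, with far more UMIs, gave 1.7% higher and 1.64% lower, together 3.34%. Low counts take a large part in these numbers, since 72.6% of the genes past 2-fold in gated nuclei had fewer than 50 UMIs. Markers of other cells moved with the library too. Summed roof markers stood at 959.9 CPM in gated nuclei of cOE and 637 CPM in those of control (log2 ratio 0.59, 0.46 to 0.72), against 249.8 CPM and 287 CPM in unmixed nuclei of cOE and of control, and mesenchyme markers at 2938 CPM in cOE and 3258 in control. Endothelium and pericyte markers stood at 311 CPM in gated nuclei of cOE and 434 CPM in those of control, a log2 ratio of −0.48 (−0.66 to −0.29). Most of this sum was Flt1, a leading gene of the gated nuclei, with 418 of 485 UMIs in cOE and 343 of 458 in control. The sum therefore does not stand for other cells alone.

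Genes higher in cOE in both all gated and unmixed nuclei included Kcnj16, Aldh1a1, Ucma and Pdk4. Kcnj16 had 46 UMIs in 35 nuclei of cOE and 4 UMIs in 4 nuclei of control, or 29.5 CPM in cOE and 3.79 in control. Its log2 ratio was 2.96 (1.51 to 4.90) in gated nuclei, 2.77 (1.28 to 4.72) in unmixed nuclei and 0.73 in other nuclei. Aldh1a1, a retinaldehyde dehydrogenase that makes retinoic acid, had 363 UMIs in 165 nuclei of cOE and 113 UMIs in 71 nuclei of control, or 233 CPM in cOE and 107 in control. The ratio of Aldh1a1 was 1.12 (0.82 to 1.44) in gated nuclei and 1.28 (0.87 to 1.71) in unmixed nuclei, and other nuclei had 103 CPM in cOE and 90.9 in control, a ratio of 0.18. Aldh1a1 was also the single gene past 2-fold among 16 tested genes of the retinoic acid and thyroid hormone list, and in unmixed nuclei the receptor gene Rara was lower as well. With no exclusion genes in the gate the ratios were smaller, at 1.08 (0.39 to 1.83) for Kcnj16 and 0.52 (0.31 to 0.73) for Aldh1a1.

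Ucma had 144 CPM in gated nuclei of cOE and 62.5 CPM in those of control, a ratio of 1.21 (0.81 to 1.63). Other nuclei showed the same direction, with 34.2 CPM in cOE and 17.9 in control, a ratio of 0.94. Ucma and Aldh1a1 are both high in sub-cluster 0, which held 105 of the 192 unmixed nuclei of cOE and 44 of the 147 of control, and their ratios were smaller within it. Within sub-cluster 0 the ratio was 0.54 for Ucma (0.03 to 1.09), 0.92 for Aldh1a1 (0.38 to 1.51) and 1.82 for Kcnj16. Pdk4, a kinase that inhibits pyruvate dehydrogenase, had 34.7 CPM in gated nuclei of cOE and 9.47 CPM in those of control, a ratio of 1.87 (0.88 to 3.01), with 2.07 in unmixed nuclei and 0.00 in other nuclei.

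Cntn1 and Gpc5 were not higher in unmixed nuclei beyond counting error. Cntn1, a neuronal adhesion molecule, had 128 UMIs in gated nuclei of cOE and 21 in those of control, a ratio of 2.05, but −0.65 (−2.10 to 0.76) in unmixed nuclei. Gpc5, a glypican, had a ratio of 1.39 in gated nuclei and 0.41 (−1.05 to 2.0) in unmixed nuclei. Sub-cluster 7, all from cOE, held 52 of the 128 cOE UMIs of Cntn1 and 66 of the 143 of Gpc5. Fgf9, an FGF ligand, had 91 UMIs in gated nuclei of cOE and 13 in those of control (2.25, 1.40 to 3.21), of which unmixed nuclei held 16 in cOE and 3 in control, a ratio of 2.05 (0.25 to 4.47). Map2, a microtubule protein of dendrites, had 205 CPM in cOE and 87.1 in control, a ratio of 1.24, and of 0.98 in unmixed nuclei.

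Among the genes lower in cOE, Hhla1, Ppp1r36 and Gm1992 were named in both sets of nuclei. Ppp1r36, a regulatory subunit of protein phosphatase 1, had 18 UMIs in 18 nuclei of cOE and 49 UMIs in 41 nuclei of control, or 11.6 CPM in cOE and 46.4 in control. The ratio was −2.0 (−2.87 to −1.20) in gated nuclei and −2.30 (−3.40 to −1.31) in unmixed nuclei, whereas other nuclei had the opposite direction, 0.81 (0.55 to 1.07). With no exclusion genes in the gate it was −0.65 (−1.18 to −0.13). Hhla1 had 60 UMIs in 12 nuclei of cOE and 137 UMIs in 22 nuclei of control, a ratio of −1.75 (−2.21 to −1.30). Of its 120 UMIs in unmixed control nuclei 105 lay in sub-cluster 1, where cOE had 0, and with the gate applied after thinning its ratio was −0.76 (−1.11 to −0.40). Gm12002, a lncRNA, had 419 UMIs in gated nuclei of cOE and 534 in those of control, a ratio of −0.91 (−1.10 to −0.72).

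A pair of immune genes were also among the lower ones. H2-Ab1, an antigen-presenting class II molecule, had 7 UMIs in gated nuclei of cOE and 27 in those of control, a ratio of −2.51, with −1.36 in other nuclei. In unmixed nuclei H2-Ab1 had 3 UMIs in cOE and 19 in control, a ratio of −3.03 (−5.43 to −1.26). Sh2d1a, an adaptor of lymphocytes, had 5 UMIs in cOE and 21 in control, and none in unmixed nuclei of either library. Summed macrophage markers stood at 36.5 CPM in unmixed nuclei of cOE and 35.7 CPM in those of control, and at 74 CPM in mixed nuclei of cOE and 107 CPM in those of control.

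**Figure D5:**
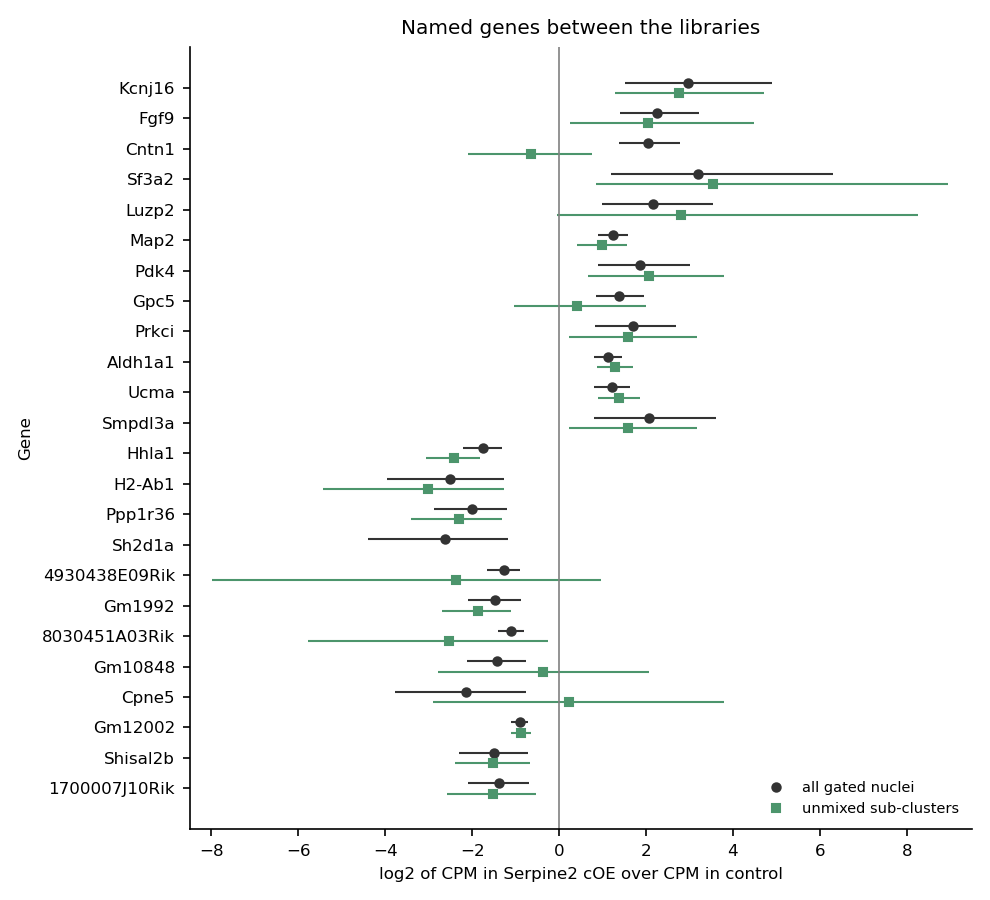
Log2 ratio of CPM in Serpine2 cOE over control (horizontal axis) with 95% counting intervals for the 24 genes named between the libraries, in all gated nuclei (dark circles) and in unmixed nuclei (green squares). Kcnj16, Aldh1a1 and Ucma stay above 0 and Ppp1r36 stays below 0 in both, while Cntn1 lies at 2.05 in all gated nuclei and at −0.65 in unmixed ones. Sh2d1a has no UMI in unmixed nuclei and no square.

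The pathway lists were read between the libraries in all gated nuclei and again in unmixed ones. Over all genes tested, 2.8% were past 2-fold higher and 2.06% lower in gated nuclei, and 2.88% and 2.48% in unmixed nuclei. In all gated nuclei none of 11 BMP ligands and antagonists (median log2 ratio 0.29), 27 BMP and TGF-beta receptors and effectors (0.01), 12 genes of the Lin28, let-7 and Hmga list (−0.20), 19 Hippo genes or 14 genes of cell cycle exit was past 2-fold, beside a median over all genes of 0.01. In unmixed nuclei Lin28b and E2f4, a repressor of cell cycle genes, were past 2-fold lower, and none of 8 BMP ligands and antagonists, 26 receptors and effectors or 17 Hippo genes was. FGF and EGF genes gave 4 of 25 higher in all gated nuclei, namely Egfr, Fgf10, Nrg3 and Fgf9, and 1 lower, Erbb2. Of Nrg3, 355 UMIs lay in sub-cluster 6, which had 5 nuclei of cOE and 1 of control. In unmixed nuclei the FGF and EGF list gave 1 of 17 higher, Dusp6, and 1 lower, again Erbb2.

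The next counts stand beside the same shares over all genes, 2.8% higher and 2.06% lower in gated nuclei and 2.88% and 2.48% in unmixed ones. Where only 1 or 2 genes were called, they are named and not read as a result about the list. Ion transport genes gave 2 of 34 higher, the potassium channel genes Kcnj10 and Kcnj16. In unmixed nuclei 2 of 23 were higher, Kcnj16 and the calcium pump gene Atp2b2. Matrix genes gave 1 of 41 higher, Otoa, of which sub-cluster 7, all from cOE, held 64 UMIs. The 2 lower ones were the basement membrane collagens Col4a1 and Col4a2. These collagens stood beside lower vessel markers, since Rgs5 of pericytes and Cdh5 of endothelium were also past 2-fold lower, and their part in the result was not tested. In unmixed nuclei neither collagen was called, and Lama2 was higher and the integrin genes Itga6 and Itgb4 lower, of 31 tested. Notch genes gave 1 of 16 higher, Hes1, and 1 lower, Jag2, and in unmixed nuclei 1 of 12 higher, again Hes1. Wnt genes gave 1 of 40 higher, Wnt9a, and in unmixed nuclei Wnt9a and Fzd7 higher and Fzd4 lower, of 29. Axon guidance genes gave 3 of 38 higher and 2 lower, and in unmixed nuclei 0 of 29 higher and 5 lower, among them Nrp1 and Robo2. Of 10 plasminogen system genes, to which Serpine2 belongs, 1 was lower, the thrombin receptor-like gene F2rl2, and in unmixed nuclei 0 of 8.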

How the data were processed

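The members and gene lists were chosen with earlier results of these data known. The authors deposited counts, whole UMI numbers for each gene in each barcode, made with Cell Ranger 8.0.1 per the file headers. The labels give the 10x Chromium 3′ kit, and the submitters' processing notes name STAR and Cell Ranger. The build is given as GRCm39 in the design text and as mm10 in the processing notes. Positions were taken from GENCODE M39 (GRCm39), in which 33185 of 33696 gene identifiers were found, and no count depended on them.

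UMIs were summed over the gated nuclei of each library and scaled to CPM of those sums, with exact Poisson intervals. Ratios have exact conditional 95% intervals, and shares have Clopper-Pearson ones. No test was made, since each group was 1 library. A gene was tested for the 2-fold rule if the gated nuclei of both libraries together held at least 20 UMIs, and called if the ratio of CPM was above 2 or below its inverse. Limits for a count of 0 use 3 counts. Thinned shares use 1000 UMIs per nucleus and leave out shallower nuclei. Sub-clusters came from Leiden clustering in scanpy 1.11.5, without rule genes, exclusion genes, Serpine2, Lgr5, Xist, Tsix and genes of the Y chromosome, mitochondria, ribosomal proteins and haemoglobins.

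Doublets were scored and not removed. Under Scrublet's own threshold 0.009% of nuclei in cOE and 0% in control were doublets, so it had not worked, and the highest scores of each library, 1040 nuclei in cOE (9.61%) and 703 in control (7.85%), are given instead. They held 65 gated nuclei of cOE (19.1%) and 44 of control (17.6%).

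The named genes are all rule genes, the 20 leading genes and, between libraries, 12 higher and 12 lower by the interval bound nearest 0, among genes in at least 10 gated nuclei of the higher library and with no nucleus holding over 20% of the UMIs, plus the genes of the lists. Scripts were tested on simulated data. Alternatives were other numbers of rule genes, other depth and gene limits, other UMI minimums, no exclusions, thinning, equal weight per nucleus, TMM scaling (edgeR 4.0.16), leaving out the highest doublet scores and leaving out each gene's top nucleus. The sets with 5 or more rule genes and of unmixed nuclei were added after seeing the data.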

Additional observations from a re-analysis of the deposited data

Results flagged for a closer look

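For 2 genes the log2 ratio of cOE over control had opposite directions in gated nuclei and in the other nuclei of the same libraries, with counting intervals on either side of 0. The difference itself was not tested. Ppp1r36 had a ratio of −2.0 (−2.87 to −1.20) in gated nuclei, from 18 UMIs in cOE and 49 in control, and of 0.81 (0.55 to 1.07) in other nuclei. Rbm24, an RNA-binding protein that is abundant in hair cells, had a ratio of −1.37 (−2.52 to −0.28) in gated nuclei, from 12 UMIs in cOE and 21 in control. In other nuclei its ratio was 0.43 (0.37 to 0.48), and it stood at 253 CPM in cOE and 188 CPM in control. In gated nuclei with 5 or more rule genes the Rbm24 ratio was −1.04 (−2.47 to 0.33), which includes 0. It came from 9 UMIs in cOE and 12 in control.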

How the results depend on the processing

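The ratio of the shares of gated nuclei, cOE over control, ranged over its 10 alternatives from 1.08 (0.896 to 1.29), when the gate was applied after thinning, to 1.20 (0.985 to 1.47) with 5 or more rule genes. The interval lay above 1 under 2 of them, 2 or more rule genes with 1.12 (1.00 to 1.24) and no exclusion genes with 1.15 (1.02 to 1.31). The number of genes more than 2-fold higher in cOE, 328 as reported, was 631 with a minimum of 10 UMIs, 93 with 50 UMIs and 2218 with no minimum. The number lower, 242 as reported, was 567, 63 and 3255 under the same minimums, 366 with equal weight per nucleus and 152 in thinned nuclei, and with fewer UMIs required more genes enter by construction. Under the sets added after seeing the data, 5 or more rule genes gave 287 higher and 207 lower, and unmixed nuclei 250 and 215. Of the named genes, Cntn1 turned to −0.65 in unmixed nuclei, and Cpne5 turned from lower to 0.22 in unmixed nuclei and to 1.05 in thinned nuclei. Ratios of named genes kept their direction but moved beyond their interval in 40 planned and 8 added pairs of gene and alternative, among them Fgf9 with 0.80 at 2 or more rule genes and Map2 with 0.45 without exclusions. For these genes, Cntn1 and Cpne5 the cause was not tested. All 20 leading genes stayed within 1 log2 unit of their reported excess in both added sets. Genes with under 50 UMIs are limited by depth. No paired analysis was possible because each group is 1 library.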

Other observations

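When the rule for naming genes between the libraries was applied to the unmixed nuclei alone, a choice made after seeing the data, 7 of the 24 genes were those named in all gated nuclei, namely Kcnj16, Ucma, Aldh1a1, Pdk4, Hhla1, Ppp1r36 and Gm1992. Among the further genes higher in cOE was Mia, a secreted protein of cartilage and melanoma, with 412 CPM in unmixed nuclei of cOE and 203 CPM in those of control (log2 ratio 1.02, 0.70 to 1.36). Uqcrfs1, a subunit of respiratory complex III, Ptgds, a prostaglandin D synthase, and Dusp6, a phosphatase induced by FGF signals, were higher as well. The log2 ratio of unmixed over other nuclei was −0.19 in cOE and −0.32 in control for Mia, and −0.49 and −2.06 for Ptgds. Mia and Ptgds were thus higher in cOE in the other nuclei too. That ratio was 0.30 in cOE and −2.01 in control for Uqcrfs1, and 2.71 and −0.41 for Dusp6. In mixed nuclei the ratio of Mia between the libraries was 0.85. Further lower genes included the semaphorin Sema3f and Dock8, a guanine nucleotide exchange factor of immune cells.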
